A study of Mus musculus with 82 samples.

Results

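The genes described here encode the proteins of the cytosolic ribosome. They were taken by symbol from the protein-coding genes of mouse chromosomes 1 to 19 on GRCm38: Rpl or Rps followed by digits, with an optional a, x or y, plus Rplp0, Rplp1, Rplp2 and Rpsa. This gave 72 of 20560 protein-coding genes, 43 of the large subunit and 29 of the small subunit. The rule reads the symbol, biotype and chromosome of a gene and no measured value. The rule leaves out the X-linked Rpl10, Rpl36a, Rpl39 and Rps4x, and also other ribosome components such as Rps3a1, Fau and Rack1, whose symbols do not match it.

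The study profiled mouse embryonic stem cells of a hybrid 129-C57BL/6 background, grown in 2i medium with LIF, with 82 samples in 32 groups. Only 2 deposited peak lists are used here. The Adnp list holds 15026 peaks and belongs to 3 ChIP-seq replicates from untreated cells in which Adnp carries a FlagAvi tag (genotype Adnp FlagAvi) and is captured on streptavidin beads. The HP1γ list holds 2047 peaks, described in its title as lacking the Adnp motif. It belongs to 3 replicates from untreated Cbx3 FlagAvi cells, which are otherwise wild type, and 3 from untreated Cbx3 FlagAvi, Adnp KO cells; Cbx3 is the gene of HP1γ. Each list was pooled by the authors, so no value below has an error between replicates and no difference was tested; the read depth is unknown. The names of the HP1γ peaks refer to the Adnp KO, and the list has no value per genotype. The lists hold no expression values, so the cell type could not be checked against its markers, and RNA levels of the ribosomal protein genes were not analysed here.

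A ribosome is built from a large and a small subunit, each an assembly of ribosomal RNA and many proteins. The small subunit reads the messenger RNA, and the large subunit joins amino acids. Ribosomal protein genes are short, expressed in every dividing cell and dispersed over the chromosomes, and many carry small nucleolar RNA (snoRNA) genes in their introns. Their transcripts typically begin with a cytosine followed by a pyrimidine tract, through which their translation responds to growth signals. Adnp, a zinc finger and homeodomain protein, joins the remodeller Chd4 and HP1 proteins in the ChAHP complex.

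The promoter closest to an Adnp peak was that of Rpl37a, which encodes a zinc-binding protein of the large subunit. Its RefSeq promoter window on GRCm38.p6, chr1:72711010-72711309 on the plus strand, runs from 250 bases before the listed start to 50 from it. In the sequence below, the 166 bases in capitals lie inside an Adnp peak and the 134 in lower case do not. Among all promoter windows listed for these genes, no other overlapped an Adnp peak.
Rpl37a: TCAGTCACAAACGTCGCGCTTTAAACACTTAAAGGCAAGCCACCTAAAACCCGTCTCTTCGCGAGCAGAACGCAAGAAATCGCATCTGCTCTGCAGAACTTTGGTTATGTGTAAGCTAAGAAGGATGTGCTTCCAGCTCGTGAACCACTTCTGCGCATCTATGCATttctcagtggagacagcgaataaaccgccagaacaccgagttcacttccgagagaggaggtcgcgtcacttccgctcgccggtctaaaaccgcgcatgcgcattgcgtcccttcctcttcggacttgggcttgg
The covered stretch ended 85 bases before the listed start, so the peak lay before the transcribed part and did not reach it. The window held neither the word CGCCCNCT, searched because it is remembered as the beginning of the published Adnp motif, nor TATAAA, on either strand.

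The next sequences show the listed starts of the other 6 genes with both a RefSeq promoter window and an end less than 1 kb from an Adnp peak. Each runs from 20 bases before the listed start to 40 from it. Capitals mark a cytosine followed by 4 or more pyrimidines, where one stands within 5 bases of the start. Where several cytosines qualify, the capitals run from the one nearest the start, so the pyrimidine run can extend further upstream in lower case.
Rpl7a: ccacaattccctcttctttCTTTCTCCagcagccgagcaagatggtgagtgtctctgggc
Rpl13: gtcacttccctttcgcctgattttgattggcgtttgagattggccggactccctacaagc
Rpl14: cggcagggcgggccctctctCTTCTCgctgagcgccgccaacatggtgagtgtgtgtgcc
Rpl19: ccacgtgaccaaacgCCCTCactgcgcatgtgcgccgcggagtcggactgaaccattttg
Rps2: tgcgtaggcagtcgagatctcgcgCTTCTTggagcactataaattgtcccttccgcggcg
Rps24: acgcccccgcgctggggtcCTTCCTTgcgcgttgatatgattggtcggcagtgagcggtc
The marked cytosine stood at the listed start itself in Rpl14, 1 base before it in Rpl7a and Rps24, 5 bases before it in Rpl19 and 4 bases after it in Rps2, while Rpl13 had none there. In Rpl14, Rpl7a and Rps24 pyrimidines continued upstream of the marked cytosine. Rps24 and Rpl19 have a further listed start each, not shown. Of the 52 genes with a listed window, 13 (25%) had the tract exactly at a listed start, against 2.7% of 16457 protein-coding genes. Allowing 5 bases to either side, the counts were 26 of 52 (50%) and 21.9%. The motif itself is in no file used here, so the word and its longer form below stand for it only as recalled. CGCCCNCT stood in a window of 11 of the 52 genes (21.2%), where 18.7% of all genes had it. Followed by 2 bases of any kind and TG, it was in none of the 52 and in 1.43% of all genes. TATAAA was found in 4 of the 52 (7.69%) and in 15% of all genes. These words were searched on both strands, and the tract on the transcribed strand alone.

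Adnp peaks were more often found around ribosomal protein genes than around protein-coding genes in general, and seldom inside them. A peak is counted at a distance when any part of it lies that close to either end of the gene. Within 1 kb, 9 of the 72 genes (12.5%) had an Adnp peak, and so did 5.6% of the 20560 protein-coding genes. Within 5 kb it was 24 of 72 (33.3%, 95% Wilson interval 23.5% to 44.8%), against 20.1%. Within 20 kb it was 55 of 72 (76.4%, 65.4% to 84.7%), against 42.8%. The intervals cover counting error only and treat genes as independent. Inside the gene the order turned: 3 of 72 genes (4.17%) overlapped a peak, against 21.5% of all protein-coding genes.

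**Figure D1:**
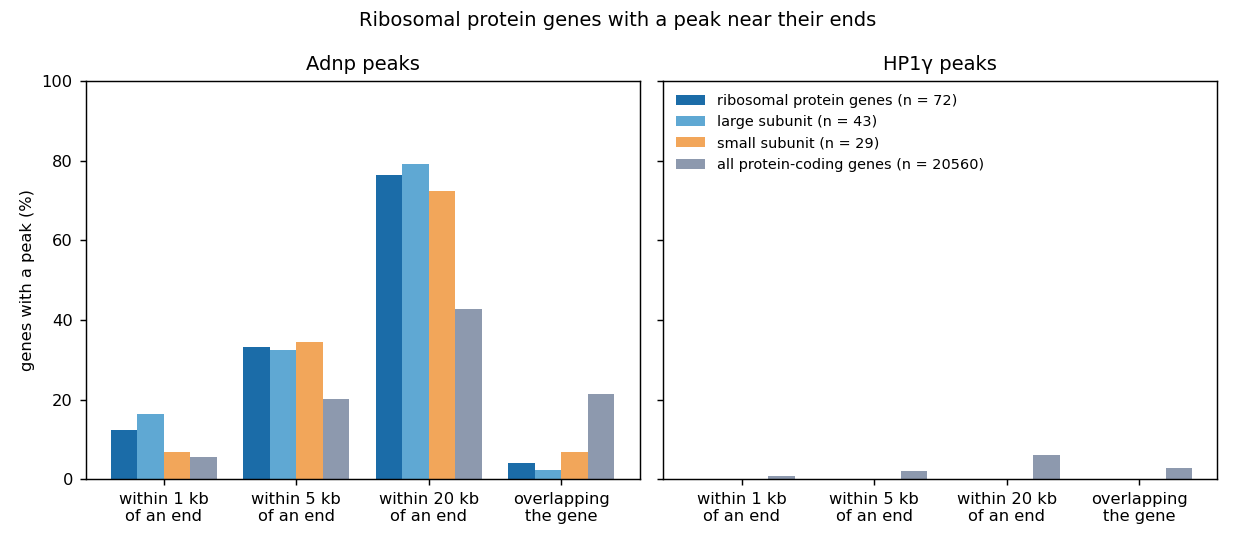
Share of genes (percent) with an Adnp peak (left) or an HP1γ peak (right) within 1, 5 and 20 kb of an end or overlapping the gene, for the ribosomal protein genes, each subunit and all protein-coding genes. The Adnp share reached 76.4% of ribosomal protein genes at 20 kb against 42.8% of all genes, and no ribosomal protein gene had an HP1γ peak at any distance shown.

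Gene length bears on the count inside genes. The ribosomal protein genes had a median length of 3179 bp, from 982 bp in Rps27 to 11774 bp in Rps15a, where all protein-coding genes had 17574 bp. Per length of gene, they held 11.5 Adnp peak centres per Mb (3 centres in 261 kb), all protein-coding genes 7.41, and genes of at most 10 kb 10.9. The value of the ribosomal protein genes was thus not lower, but with 3 centres a difference per length could not be resolved in either direction. Around the ends, genes of at most 10 kb had a peak within 5 kb less often (15.1%) than all genes did, and 4.63% of them overlapped one.

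The large subunit supplied 7 of the 9 genes with an Adnp peak within 1 kb. By subunit, the counts were 7 of 43 large subunit genes (16.3%) and 2 of 29 small subunit genes (6.9%) within 1 kb. Within 5 kb they were 14 of 43 (32.6%, interval 20.5% to 47.5%) and 10 of 29 (34.5%, 19.9% to 52.7%), and within 20 kb 34 of 43 (79.1%) and 21 of 29 (72.4%). A peak overlapped 1 large subunit gene and 2 small subunit genes. At 5 kb the intervals of the subunits overlapped widely, and at 1 kb the contrast rests on 9 genes. Genes with at least 3 peaks within 20 kb numbered 9 of 43 large subunit genes (20.9%) and 11 of 29 small subunit genes (37.9%), against 11.1% of all protein-coding genes.

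Among the large subunit genes, Rpl13 had Adnp peaks on both sides within 1 kb. Rpl13 occupies 123102350 to 123105244 of chromosome 8, plus strand. A peak with a score of 67.5 ended 691 bp before its start, and a second, with a score of 55.8, began 981 bp after its other end. The score is the authors' own value per peak, of a kind not stated; in the whole list it ran from 3.66 to 565 with a median of 21.2, so both peaks stood above its upper quartile of 33.6. A further 2 peaks beyond the far end, at 2844 and 4633 bp, had scores of 38.3 and 42.2. Rpl13 was thus flanked by 4 peaks without one inside it.

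Rpl7a also had a peak on each side, but these lay in its neighbours. The peak before the start (26909405 to 26909908 on chromosome 2, score 56.9) lay 777 bp from Rpl7a and inside Med22, a Mediator subunit gene 42 bp away. The peak after the other end, at 1031 bp with a score of 21.9, lay inside Surf1, an assembly factor gene of cytochrome c oxidase 65 bp away. Rpl32 had 2 peaks, at 318 and 834 bp beyond its upper end, with scores of 13.8 and 49.8, and another at 4672 bp inside Cand2, which overlaps Rpl32. The strand of Rpl32 is not in the table used here. Rpl37a had the peak shown above, with a score of 29.6 and a width of 789 bp, where the list's median width was 396 bp.

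Rpl14 and Rpl8 each had a single peak of low score within 1 kb. At Rpl14 it ended 359 bp before the start with a score of 9.97. At Rpl8, whose protein lies near the peptidyl transferase centre, it lay 881 bp from the upper end with a score of 18.2. Rpl19, whose protein helps to bridge the subunits, alone among large subunit genes had a peak inside it, with a score of 26.1 (chromosome 11, 98029717 to 98030262). It lay 231 bp from the far end of the annotated gene and 2793 bp downstream of the nearest listed start. These 3 scores were below the upper quartile of the list, and that of Rpl19 alone was above its median.

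The remaining large subunit genes with an Adnp peak within 5 kb were Rpl9, Rpl10a, Rpl13a, Rpl23a, Rpl27, Rpl29 and Rpl30. Rpl10a, which encodes the protein of the mobile L1 stalk, had the highest score among them, 62.97, in a peak 3551 bp before its start and inside the Fanconi anaemia gene Fance. Rpl23a, whose protein lines the exit of the peptide tunnel, had a peak of score 41.4 at 4693 bp inside the kinase gene Nek8. The Rpl9 peak (2916 bp, score 23.3) lay inside Lias, a lipoic acid synthase gene, and that of Rpl13a (2067 bp, score 15.4) lay 89 bp from the cytokine gene Flt3l. Rpl27 had 2 peaks, at 1363 and 4995 bp, with scores of 10.5 and 11.4. Rpl29 and Rpl30 had 1 each at 3542 and 4184 bp, with scores of 14.96 and 11.4. In 4 of these 7 genes the peak lay in or within 100 bp of another protein-coding gene.

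Among the small subunit genes, Rps10 had the most Adnp peaks and the highest score. Rps10, which encodes a protein at the entry of the messenger RNA channel and is mutated in Diamond-Blackfan anaemia, occupies 27630415 to 27635244 of chromosome 17, minus strand. Before its start were peaks at 3457 bp with a score of 111, the 283rd highest of the list, and at 4323 bp with a score of 35.2. Beyond the other end were peaks at 2603 and 3940 bp with scores of 35.2 and 24.2. With 6 peaks within 20 kb it led all 72 genes, yet none lay within 1 kb of it.

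Rps24 and Rps2 were the small subunit genes with an Adnp peak within 1 kb, in both cases inside the annotated gene. In Rps24, another gene of Diamond-Blackfan anaemia, the chromosome 14 peak (24496095 to 24496549, score 43.3) lay 411 bp from the far end. In Rps2, whose protein lies beside the messenger RNA entry, the chromosome 17 peak (24718968 to 24719343, score 28.8) lay 847 bp inside the annotated low end. The listed start of Rps2 is at 24720063, so the peak lay 720 bp upstream of it, in a part of the annotated gene that precedes this start. A second Rps2 peak at 2935 bp, with a score of 14.6, lay 653 bp from Rnf151, whose end is 63 bp from Rps2.

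The other small subunit genes with an Adnp peak within 5 kb had 1 each. Rps29, a zinc-binding protein gene, had the highest score among them, 49.5 at 1530 bp, followed by Rps14, lost in a form of myelodysplastic syndrome, with 30.01 at 1709 bp. Rps16, whose protein contacts the transfer RNA in the peptidyl site, had a score of 25.1 at 1791 bp beyond its far end. Rps7 had 21.9 at 1361 bp before its start. Scores were low at Rps27 (10.1 at 2325 bp, inside Rab13) and at Rps13 (8.76 at 3966 bp).

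**Figure D2:**
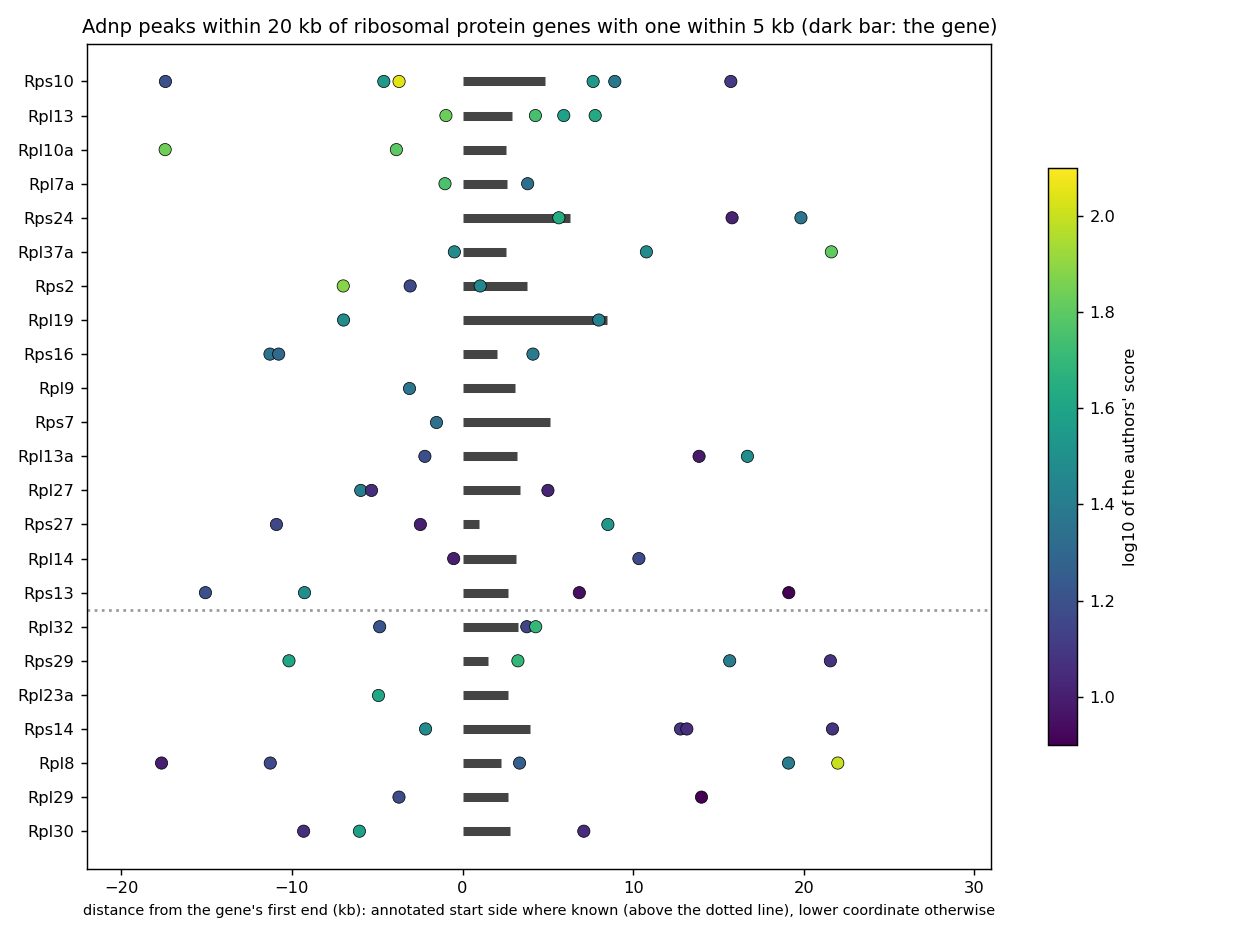
Adnp peak centres (points, coloured by log10 of the authors' score) within 20 kb of ribosomal protein genes with a peak within 5 kb, against the distance in kb from the gene's first end; bars are the genes. Genes above the dotted line run from the annotated start side, those below it from the lower coordinate. Peaks lie inside Rpl19, Rps2 and Rps24 only, and Rpl13 and Rps10 have 4 within 5 kb.

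As a set, the 35 distinct Adnp peaks within 5 kb of an end were spread over the score range of the list. Their scores ran from 8.76 to 111 with a median of 25.1 (quartiles 14.8 and 41.8), beside 21.2 (13.9 and 33.6) for the 15026 peaks, and 13 of the 35 stood at or above the upper quartile. The 11 within 1 kb had a median of 29.6, and the 120 within 20 kb a median of 22.6. By subunit the medians within 5 kb were 23.3 over 21 peaks (large) and 26.9 over 14 peaks (small). Median widths were 445 bp within 5 kb and 396 bp in the whole list.

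No Adnp peak covered a listed start of a ribosomal protein gene. RefSeq windows, and with them the strand and the start, were listed for 52 of the 72 genes. None of the 52 had a peak over a start, a count that allows a share of up to 5.77%, and 0.717% of 16457 protein-coding genes had one, so a difference was not detectable with 52 genes. Within 1 kb of a listed start, 5 of the 52 (9.62%) had a peak: Rpl37a at 85 bp, Rpl14 at 359, Rpl13 at 691, Rps2 at 720 and Rpl7a at 899. The share of all protein-coding genes was 3.83%. In these 5 genes the peak lay upstream of the start. Over the 52 genes, 13 peaks lay before the start side within 5 kb, 9 beyond the other end and 3 inside. Within 20 kb the sides were even, with 36 and 39.

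Beyond the first kb, the peaks thinned out with distance from the ribosomal protein genes, but slowly. Counted outward from both ends, Adnp peak centres had a density of 27.8 per Mb in the first kb (4 centres), 46.9 from 1 to 5 kb (27 centres), 40.3 from 5 to 20 kb, 28.5 from 20 to 50 kb and 22.8 from 50 to 100 kb. Over the same distances all protein-coding genes had 16.8, 16.5, 15.5, 14.6 and 13.5 per Mb. The ribosomal protein genes were therefore higher in each bin, including the one farthest out. The first bin holds few peaks. Small subunit genes had no centre in the first kb outside the gene and 51.7 per Mb from 1 to 5 kb, while large subunit genes had 46.5 and 43.6.

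**Figure D3:**
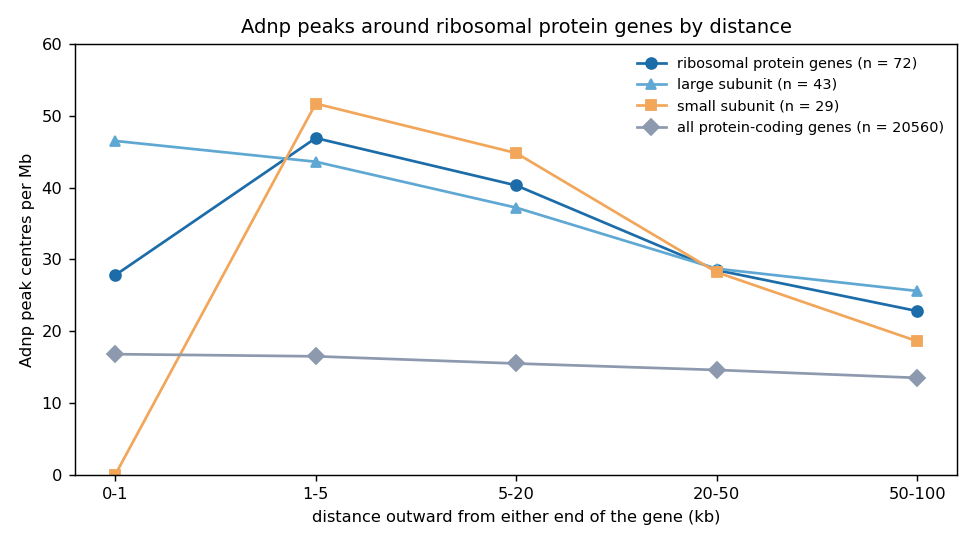
Adnp peak centres per Mb in bins of distance (kb) outward from both ends of the genes, for the ribosomal protein genes, each subunit and all protein-coding genes. From 1 to 5 kb the ribosomal protein genes have 46.9 per Mb against 16.5 for all protein-coding genes, and from 50 to 100 kb 22.8 against 13.5; the first bin of the ribosomal protein genes rests on 4 centres.

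Genes next to the ribosomal protein genes overlapped Adnp peaks more often than the ribosomal protein genes themselves, but were also longer. Near the ends, their shares were somewhat higher at 1 and 5 kb, without a resolved difference, and about equal at 20 kb. The nearest protein-coding gene on each side gave 142 distinct neighbours outside the family, with a median length of 19031 bp, against 3179 bp. Of these neighbours, 60 (42.3%) had an Adnp peak within 5 kb, 23 (16.2%) within 1 kb and 106 (74.6%) within 20 kb, and 53 (37.3%) overlapped one. In the same order, the ribosomal protein genes had 33.3%, 12.5%, 76.4% and 4.17%, and all protein-coding genes 20.1%, 5.6%, 42.8% and 21.5%. The neighbours' share at 5 kb lay inside the interval of the ribosomal protein genes, 23.5% to 44.8%. At 1 kb the ribosomal protein genes with a peak numbered only 9. In 49 neighbours (34.5%) at least 1 of the peaks within 5 kb was not within 5 kb of a ribosomal protein gene. In 11 neighbours all the peaks within 5 kb also lay within 5 kb of a ribosomal protein gene. Of the 72 ribosomal protein genes, 47 had a neighbour with any peak within 5 kb, shared or not. Of these 47, 20 also had a peak within 5 kb themselves and 27 did not. A shared peak counts for both genes here. Rpl37a, Rps7, Rps24 and Rps14 had a peak of their own beside neighbours with none.

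The neighbourhoods were dense in genes. Ribosomal protein genes had a median of 2 other protein-coding genes within 20 kb and 6 within 100 kb, where all protein-coding genes had 1 and 4. A neighbour lay within 1 kb of 19 of them, as close as 9 bp between Rps28 and Ndufa7, and 11 overlapped another protein-coding gene. For these last counts no share of all protein-coding genes is given here, so they only describe the members. Protein-coding genes with at least 6 others within 100 kb, a comparison chosen after seeing the data, had an Adnp peak within 5 kb in 25.3% of cases and within 20 kb in 52%, both between all genes and the ribosomal protein genes. The part of gene density in the counts was not tested.

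Of the 35 peaks within 5 kb of a ribosomal protein gene, 13 were nearer to another protein-coding gene and 7 lay inside one. Over the 55 genes with an Adnp peak within 20 kb, the nearest peak was nearer to another protein-coding gene in 31. The matching shares for all protein-coding genes are not given here, so these counts cannot be read as particular to ribosomal protein genes. Some neighbours carried peaks of high score: Cpne7 beside Rpl13 (127), Ctnnb1, the gene of β-catenin, beside Rpl14 (108), Rnf222 beside Rpl26 (103) and the zinc finger gene Zfp647 beside Rpl8 (100.2 at a peak 19430 bp from Rpl8). Ctnnb1 is the next protein-coding gene after Rpl14, but 358746 bp away.

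Within 20 kb, Rps10 had 6 Adnp peaks, and Rpl8 and Rpl21 had 5 each. Rpl21 had none within 5 kb, with 4 peaks on its lower side and 1 on its upper side. In all, 31 genes had a peak within 20 kb but none within 5 kb. Among these, Rpl35 had the highest score, 148 at 17627 bp, followed by Rpl17 with 117 at 17397 bp inside Dym, and Rpl31 with 86.1 at 14728 bp inside Npas2.

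At the other extreme, 17 genes had no Adnp peak within 20 kb, among them Rpl4, Rpl5, Rpl15, Rpl22, Rpl24, Rplp2, Rps3, Rps15a, Rps20 and Rpsa. Rpl5, whose protein binds Mdm2 when ribosome assembly is disturbed, was 23128 bp from its nearest peak; its partner Rpl11 had 2 peaks within 20 kb, the nearest at 8810 bp. Rplp2, of the stalk that recruits elongation factors, was at 26338 bp from its nearest peak, while Rplp0 and Rplp1 had 1 peak each within 20 kb. Rps20 was the farthest, at 666095 bp. Over all 72 genes the median distance to the nearest Adnp peak was 9995 bp, against 29975 bp for all protein-coding genes.

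**Figure D4:**
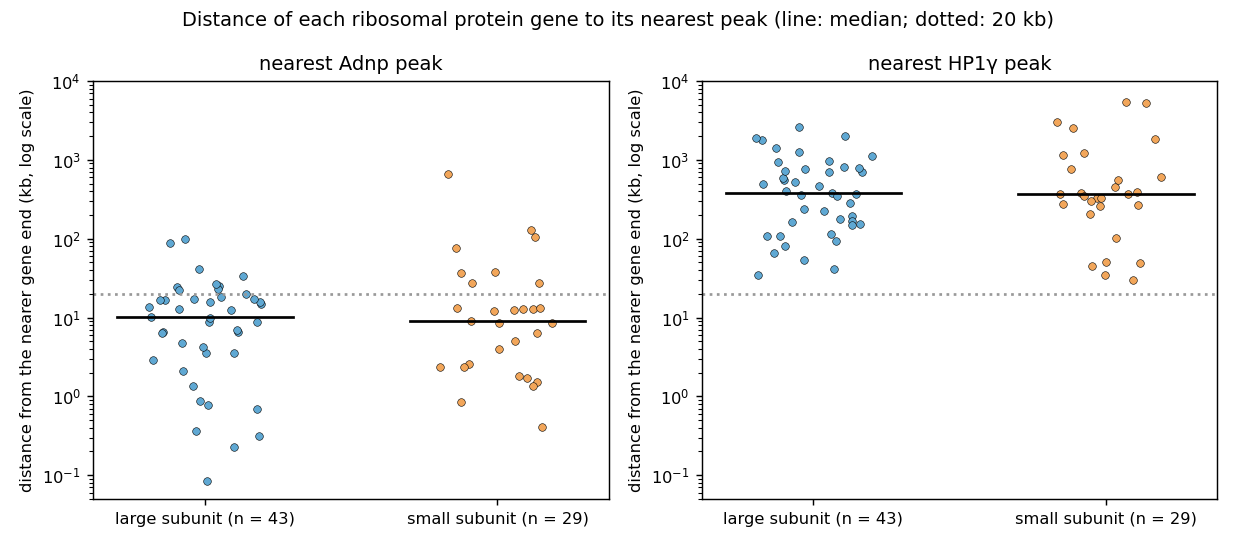
Distance (kb, log scale) from the nearer end of each ribosomal protein gene to its nearest Adnp peak (left) and HP1γ peak (right), by subunit; lines are medians and the dotted line marks 20 kb. The median distance to an Adnp peak was 9995 bp over the 72 genes, and every gene was more than 20 kb from an HP1γ peak.

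No HP1γ peak of the list lay near a ribosomal protein gene. None of the 72 genes had one within 1, 5 or 20 kb of an end or overlapping the gene, and 72 genes at 0 allow a share of up to 4.17%. Of all protein-coding genes, 0.89% had an HP1γ peak within 1 kb, 2.13% within 5 kb and 6.14% within 20 kb, and 2.98% overlapped one. The shares at 1 and 5 kb and inside are below what 72 genes can resolve, and the share at 20 kb is above it. Among protein-coding genes of at most 10 kb, however, 4.25% had an HP1γ peak within 20 kb, close to the limit of 4.17%. Against genes of similar length, a shortfall at 20 kb was therefore hardly resolvable. The list holds only peaks without the Adnp motif, so HP1γ at sites with the motif is not covered by this count.

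The nearest HP1γ peak of all lay 29.9 kb from Rps16. Others lay 34.4 kb from Rpl13 and 40.9 kb from Rpl13a. Within 50 kb there were 6 genes (8.33%) with an HP1γ peak, against 12.3% of all protein-coding genes, and within 100 kb 11 (15.3%), against 20.2%. The median distance was 369 kb for the ribosomal protein genes and 389 kb for all. Among the 142 neighbours, 5 (3.52%) had an HP1γ peak within 20 kb, against 6.14% of all protein-coding genes. They included Eloa beside Rpl11, Plekhg2 beside Rps16, Pcnp beside Rpl24, and Cpne7 beside Rpl13. Cpne7, a copine gene, was the only neighbour with one within 5 kb, at 4497 bp, where 2.13% of all protein-coding genes had one.

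Other genes of protein synthesis had an Adnp peak within 5 kb in shares between 31.8% and 32.8%. The ribosomal protein genes had 33.3% and all protein-coding genes 20.1%. At 1 kb and inside the gene the lists differed more. Of 64 translation initiation and elongation factor genes 21 (32.8%) had a peak within 5 kb, of 44 ribosome biogenesis genes 14 (31.8%) and of 78 mitochondrial ribosomal protein genes 25 (32.1%). At 1 kb the counts were 2 (3.12%), 1 (2.27%) and 7 (8.97%), against 12.5% of the ribosomal protein genes and 5.6% of all protein-coding genes. At 20 kb they were 46 (71.9%), 26 (59.1%) and 46 (59%), against 76.4% and 42.8%. A peak overlapped 20 (31.2%), 4 (9.09%) and 20 (25.6%) of them, against 4.17% and 21.5%. HP1γ peaks within 20 kb were found at 6 (9.38%), 3 (6.82%) and 7 (8.97%) genes of these lists, against 6.14% of all protein-coding genes. The lists were not tested against each other.

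The share with an Adnp peak within 5 kb was the same in ribosomal protein genes that host snoRNA genes and in those that do not. The annotation places 56 snoRNA genes inside 27 of the 72 genes (37.5%), where 1.71% of all protein-coding genes host one. An Adnp peak lay within 5 kb of 9 of the 27 hosts and of 15 of the other 45, which is 33.3% in both. Rpl4, with 5 snoRNA genes, had no Adnp peak within 20 kb, while Rpl7a and Rpl13a, with 4 each, had 2 and 1 within 5 kb. By chromosome, 14 of the 72 genes lay on chromosome 7, of which 4 had a peak within 5 kb. Chromosome 17 had 3 of 6, chromosome 11 had 3 of 7, and chromosomes 4 and 10 had none of 5 and of 4. The share of all protein-coding genes is not given per chromosome here, so these small counts show no difference between chromosomes.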

How the data were processed

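Per the labels' protocols, chromatin of crosslinked cells was sonicated and the tagged proteins captured on streptavidin beads. MACS2, edgeR, STAR (2.5.0a), Bowtie (1.0.0) and bcl2fastq (1.17) are named per the submitters' processing notes, with mm10 (GRCm38) as build; which tool made the lists, and with which threshold, is not given in the sources used here. Both deposited lists hold positions and a score per peak by the authors, pooled over replicates; the HP1γ score is 0 throughout and was not used. BED starts were turned to 1-based positions. Genes came from the RefSeq table of GRCm38.p6 (chromosomes 1 to 19, starts at 3 Mb or later), and promoters, starts and strands from its sequence table, which matched 52 of the 72 genes by gene ID. Exons and untranslated regions were not used here.

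Distances run from the nearest base of a peak to a gene end. Counts are descriptions beside all protein-coding genes. No test was planned or made. The gene list, the related lists and the named genes were chosen with earlier results of these data known. Named were all genes with an Adnp peak within 5 kb or inside, their neighbours, and those with most peaks within 20 kb; the genes nearest to HP1γ peaks, Rpl5, Rpl11, Rpl17, Rpl31, Rpl35, Rplp0, Rplp1, Rplp2, Rpl4, Rps20 and the neighbours with high scores or HP1γ peaks were chosen after their values were seen. Some members enter the counts but are not reported by name here. Depth is unknown. Distance counts were tested on simulated data. Alternatives were peak centres, Adnp peaks at or above the median score, peaks within 10 kb joined, distinct peaks, other members and other backgrounds. Computation used pandas 2.3.3, NumPy 2.4.6, matplotlib 3.10.9 and SciPy 1.17.1 under Python 3.11.15.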

Additional observations from a re-analysis of the deposited data

How the results depend on the processing

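Of 56 alternative values, 48 stayed within 1.5 times the reported one and 8 moved further. The 24 genes with an Adnp peak within 5 kb became 9 at 1 kb, 55 at 20 kb and 15 when only peaks at or above the median score were counted. The 14 large subunit genes became 7, 34 and 8 in the same order, and the 10 small subunit genes became 2 at 1 kb and 21 at 20 kb. These alternatives count fewer or more peaks by construction. Peak centres, joined peaks, the X-linked genes or ribosome components outside the symbol rule moved no count that far, and the HP1γ counts stayed at 0 in each alternative run. Neither list gives a depth, so a peak missing from it may lie below the authors' unstated threshold.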

Other observations

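Pseudogenes of the ribosomal protein genes, which are processed copies scattered over the genome, had fewer Adnp peaks nearby than their parent genes. Of 276 such pseudogenes, with a median length of 539 bp, 14 (5.07%) had an Adnp peak within 1 kb, 33 (12%) within 5 kb and 80 (29%) within 20 kb. At these distances the Adnp shares were 5.6%, 20.1% and 42.8% of all protein-coding genes. They were 5.03%, 15.1% and 33.5% of protein-coding genes of at most 10 kb. An HP1γ peak lay within 5 kb of 2 pseudogenes (0.725%) and within 20 kb of 10 (3.62%). All protein-coding genes had 2.13% and 6.14%, and those of at most 10 kb 1.37% and 4.25%.

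Among the paralogues outside the symbol rule, Rpl7l1 on chromosome 17 (46773907 to 46782656) had 2 Adnp peaks inside the gene, and its nearest HP1γ peak lay 9465 bp away. Rpl39l, a paralogue of the X-linked Rpl39, had its nearest Adnp peak at 2547 bp and its nearest HP1γ peak at 12270 bp. Fau, which encodes a ubiquitin-like fusion with a small subunit protein, had an Adnp peak at 1671 bp. None of the 4 X-linked genes had an Adnp peak within 5 kb, the nearest being 10062 bp from Rpl10.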
